A study of Mus musculus with 32 samples.

Results

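The BCL2 family is the set of proteins that decides whether a stressed cell opens its mitochondria and dies by apoptosis. Guardians such as BCL2, BCL-XL and MCL1 hold the pore-forming effectors BAX and BAK1 in check, and BH3-only proteins such as BIM, PUMA, NOXA and BID release them when a cell is stressed, starved of growth factor or damaged. In sympathetic neurons, which depend on nerve growth factor early in life, this balance sets survival, and MYC proteins are known both to drive proliferation and to sensitise cells to apoptosis. Messenger RNA of 10 members was followed here, chosen by name: the guardians Bcl2, Bcl2l1, Bcl2l2 and Mcl1, the effectors Bax and Bak1, and the BH3-only genes Bcl2l11, Bbc3, Pmaip1 and Bid. All 10, of 20660 named genes on the array, were measured, by 13 of 27235 named probes; Bcl2l1, Bcl2l2 and Mcl1 had 2 probes each.

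The samples came from 3-week-old mice of the 129+Ter/SvJcl background. Wild-type mice (n = 8) and hemizygous TH-MYCN mice (n = 8) each gave the superior mesenteric ganglion (SMG), which holds abdominal sympathetic neurons. The TH-MYCN mice carry a human MYCN transgene driven by the tyrosine hydroxylase promoter, active in the sympathoadrenal lineage, and develop neuroblastoma. Spheres are floating clusters of cultured cells, here labelled with the same hemizygous TH-MYCN genotype: primary spheres after 8 days in culture (n = 8) and spheres passaged 5 times (n = 4, each on 2 arrays that were averaged). The labels do not say which ganglia or cultures shared an animal or a litter, so the p-values measure the spread between these samples.

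Values are log2 processed signals relative to the 75th percentile of the same array, whose intensity ranged from 523 to 989 in the wild-type SMG, from 840 to 1358 in the TH-MYCN SMG, from 464 to 564 in primary spheres and from 323 to 539 in passaged spheres. The number of arrays limits the precision. All 8 sympathetic neuron markers were well above background in every sample. The mean of 10 macrophage markers lay between 0.93 and 1.59 in wild-type SMG and between 1.42 and 2.16 in TH-MYCN SMG, and between -4.94 and -4.19 in both kinds of sphere, where 3 to 5 of the 10 markers were above background and Adgre1, Cd14, C1qa and C1qc were in no sphere. The mean of 9 fibroblast markers lay between 3.17 and 4.03 in both kinds of ganglion and between -4.64 and -1.52 in spheres, where 3 to 8 of the 9 were above background. The mean of 9 glia markers lay between 1.20 and 1.60 in wild-type SMG, between -0.15 and 0.97 in TH-MYCN SMG and between -4.92 and -1.79 in spheres, where 3 to 7 of the 9 were above background. That of 8 endothelial markers ran from -0.19 to 0.27, from -1.11 to -0.29 and from -3.72 to -2.76 in the same order, with 4 or 5 of the 8 above background in spheres. That of 6 erythroid markers lay between 0.87 and 3.64 in ganglia and between -6.74 and -4.28 in spheres. In bulk RNA fewer cells of a type and less RNA per cell cannot be told apart. The mean of 16 mitosis genes was -4.61 to -3.38 in wild-type SMG, 0.13 to 2.26 in TH-MYCN SMG and 3.12 to 3.56 in spheres. TH-MYCN SMG 4, at 0.13, stood apart from the other TH-MYCN ganglia, at 1.03 to 2.26. The ganglia were hybridised on slides 1 and 2, both genotypes on each, and the spheres on slides 3 and 4, so slide and group cannot be told apart between spheres and ganglia.

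In the TH-MYCN SMG, 3 of the 4 guardians were lower than in the wild-type SMG, Bcl2 by a log2 difference of 0.99, while Bid, Bax, Bbc3, Mcl1 and, except under a normexp background correction, Bcl2l11 were higher. Primary spheres, compared with the TH-MYCN SMG, had higher Bax, Bbc3, Bid, Bcl2l11 and, except after quantile normalization, Mcl1, and lower Bcl2l2 and Bcl2l1. Passaged and primary spheres did not differ in any member at the threshold used. Called here means an adjusted p below 0.05 (limma, Benjamini-Hochberg adjustment over all tested genes). In the TH-MYCN SMG 5 of 10 members were called higher, where 21.9% of all tested genes were, and 3 of 10 lower, where 43.8% were. In primary spheres against the TH-MYCN SMG 5 were called higher, with a background of 50.2%, and 2 lower, with a background of 32.9%. Of the 5 called higher in the ganglia, Bcl2l11 passed the filter on dim probes only through the TH-MYCN SMG. With most genes called, the count of called members alone says little about the family. The median difference over the members was 0.20 in the TH-MYCN SMG, against -0.22 over all tested genes, and 0.27 in primary spheres, equal to the 0.27 over all tested genes. The 2 genotypes did not overlap for 3 of 10 members, Bcl2l1, Bcl2l11 and Bid, where this held for 21.5% of all tested genes. For Bcl2l11, which entered only through the TH-MYCN SMG, the nearest readings, -5.48 and -5.52, were both below background. For Bid the nearest readings were both -0.43. Primary spheres and TH-MYCN SMG did not overlap for 6 of 10, near the 57.9% over all tested genes. Both comparisons use the same TH-MYCN SMG samples, so their directions are not independent of each other. Markers of other cells moved with the ganglion comparison too. The glia marker means did not overlap between the genotypes, with 8 of 9 markers called lower in the TH-MYCN SMG (median -1.06). Of 8 endothelial markers 7 were called lower (median -0.57). Of 9 fibroblast markers 6 were called lower and 1 higher (median -0.59), and of 7 tested lymphocyte markers 5 were called lower and 1 higher. Of 10 macrophage markers 7 were called higher and 2 lower (median 1.16). The part of these markers' cells in the members' differences was not tested.

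**Figure D1:**
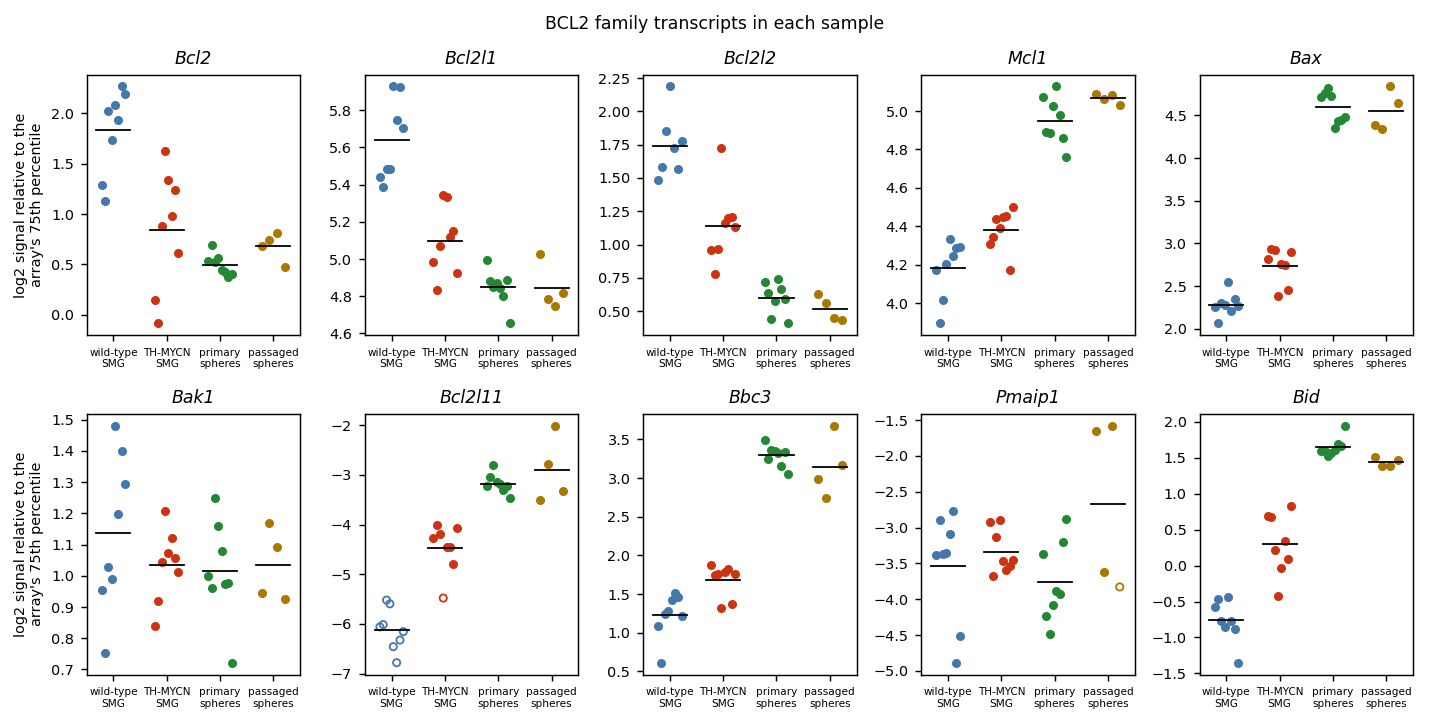
Log2 signal relative to the array's 75th percentile for each member (panel) in each sample (point), by group. Black bars are group means and open points are samples whose spot was not well above background. Bcl2l11 was open in all 8 wild-type ganglia. Mcl1, Bax, Bcl2l11, Bbc3 and Bid were higher, and Bcl2l2 lower, in all spheres than in all ganglia. Primary spheres and TH-MYCN SMG did not overlap for 57.9% of all tested genes. Each panel has its own axis, so levels of different genes cannot be set against each other.

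Bcl2, the founding guardian and a survival factor of postmitotic neurons, read a lowest value of 1.13, a median of 1.98 and a highest of 2.27 in wild-type SMG, and -0.09, 0.93 and 1.63 in TH-MYCN SMG. Primary spheres read 0.37, 0.48 and 0.69, and passaged spheres 1 to 4 read 0.68, 0.74, 0.82 and 0.48. The ganglia of the 2 genotypes overlapped, with wild-type SMG 1 and 2 the lowest of their group and TH-MYCN SMG 4 the highest of its own, and the TH-MYCN ganglia varied far more among themselves (SD 0.59, n = 8) than the primary spheres (SD 0.10, n = 8). Bcl2 fell by 0.99 on the log2 scale (SE 0.24, adjusted p 0.00176) in the TH-MYCN SMG. Within slide 1 alone the difference was -0.90 with an adjusted p of 0.0701. The further difference of -0.35 from the TH-MYCN SMG to primary spheres did not pass (adjusted p 0.118, 95% interval -0.77 to 0.08). It did pass without TH-MYCN SMG 1 (-0.45, adjusted p 0.0396) or 2 (-0.48, adjusted p 0.0156), the 2 lowest ganglia, and when the median gene was set to no difference (-0.62, adjusted p 0.00984).

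Bcl2l1, which encodes BCL-XL, the guardian that keeps mature neurons alive, read a lowest value of 5.38, a median of 5.59 and a highest of 5.93 in wild-type SMG. The TH-MYCN SMG read 4.83, 5.09 and 5.34, primary spheres 4.65, 4.86 and 5.00, and passaged spheres 5.03, 4.79, 4.75 and 4.82. All TH-MYCN ganglia were below all wild-type ganglia, while TH-MYCN ganglia and spheres overlapped. Bcl2l1 fell by 0.54 (SE 0.10, adjusted p 2.92e-04) in the TH-MYCN SMG and by a further 0.25 (SE 0.08, adjusted p 0.00842) in primary spheres. Its second probe differed by -0.62 (adjusted p over probes 1.64e-04) and by -0.20 (adjusted p over probes 0.101). With the 4 primary cultures of slide 3 alone, an alternative chosen after seeing the data, the step to spheres was -0.20 (adjusted p 0.0977).

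Bcl2l2, the guardian BCL-W, which is prominent in neurons, read 1.48, 1.72 and 2.19 (lowest, median, highest) in wild-type SMG over 7 samples, since its spot in wild-type SMG 1 was marked as an outlier by the scanner software and left out. It read 0.78, 1.15 and 1.72 in TH-MYCN SMG, 0.41, 0.61 and 0.74 in primary spheres, and 0.63, 0.56, 0.44 and 0.43 in passaged spheres. TH-MYCN SMG 4 alone reached into the wild-type range, and every sphere was below every ganglion. Bcl2l2 fell by 0.60 (SE 0.13, adjusted p 0.00102, 15 samples) in the TH-MYCN SMG and by 0.54 (SE 0.11, adjusted p 1.65e-04) in primary spheres. The first of these did not pass within slide 1 (-0.53, adjusted p 0.0915) or with both probes averaged (-0.41, adjusted p 0.112). The dimmer second probe read -1.04 on slide 1 and -2.23 on slide 2 in wild-type SMG, and for the same passaged RNA it differed by a mean of -0.60 between slide 4 and slide 3, against -0.03 for the brighter probe.

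Mcl1, a short-lived guardian whose protein is under constant turnover, was the exception among the guardians. It read 3.89, 4.22 and 4.34 (lowest, median, highest) in wild-type SMG, 4.17, 4.41 and 4.50 in TH-MYCN SMG, 4.76, 4.93 and 5.13 in primary spheres, and 5.09, 5.06, 5.08 and 5.03 in passaged spheres. The genotypes overlapped, and every sphere lay above every ganglion. Mcl1 rose by 0.20 (SE 0.08, adjusted p 0.0304) in the TH-MYCN SMG and by 0.57 (SE 0.07, adjusted p 5.48e-07) in primary spheres. The rise in the ganglia was near the threshold: it did not pass when wild-type SMG 2 or 3, or TH-MYCN SMG 3, 5, 6 or 8, was left out (adjusted p up to 0.0624), nor within slide 1 (0.30, adjusted p 0.0572) or slide 2 (0.10, adjusted p 0.349). The rise in spheres depended on the scaling and was 0.04 (adjusted p 0.598) after quantile normalization. The dimmer second probe rose by 0.65 (adjusted p over probes 5.21e-05) and 0.85 (adjusted p over probes 1.89e-07).

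Among 4 genes that control MCL1 protein stability, a list chosen with earlier results known, 1 was called higher and 2 lower in the TH-MYCN SMG, where 21.9% and 43.8% of all tested genes were, and their median of -0.18 lay near the -0.22 over all genes. Fbxw7, the substrate receptor of a ubiquitin ligase that marks MCL1 and also MYC proteins for destruction, rose by 0.99 (SE 0.15, adjusted p 4.39e-05). The deubiquitinases Usp13 and Usp9x fell by 0.50 (adjusted p 0.0298) and by 0.38 (adjusted p 9.77e-04). In primary spheres 1 of the 4 was called higher and 1 lower, where 50.2% and 32.9% of all tested genes were. Fbxw7 rose by a further 0.45 (adjusted p 0.00616) and Usp9x fell by a further 0.42 (adjusted p 4.31e-05). In passaged against primary spheres 0 of the 4 were called by limma, where 5.16% of all tested genes were called higher and 6.54% lower. Of the 4, 1 had an unadjusted p under 0.05, where 29.1% of all tested genes did.

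**Figure D2:**
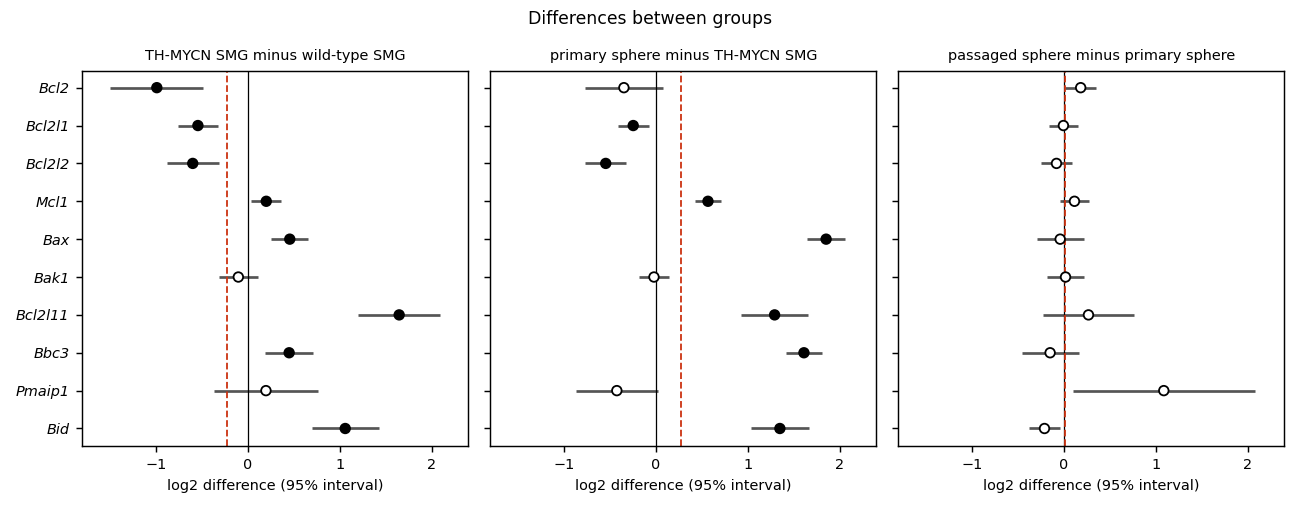
Log2 difference of each member between groups, with its 95% interval, in the 3 comparisons. Filled points passed the adjusted threshold, and the dashed red line is the median of all tested genes (-0.22, 0.27 and 0.01); the guardians other than Mcl1 lie left of 0 and Bax, Bbc3, Bcl2l11 and Bid right of it in the first 2 panels (Bcl2l11 in the ganglia was at -0.13 with normexp), and no point is filled in the last.

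The effectors BAX and BAK1 form the pore in the outer mitochondrial membrane and can stand in for each other in many tissues; BAX is the one that developing neurons mainly rely on. Bax read a lowest value of 2.06, a median of 2.27 and a highest of 2.54 in wild-type SMG, 2.38, 2.78 and 2.94 in TH-MYCN SMG, and 4.35, 4.60 and 4.82 in primary spheres. Passaged spheres read 4.39, 4.34, 4.84 and 4.64. The genotypes overlapped in the ganglia, where TH-MYCN SMG 4 and 7 were the lowest of their group, and every sphere was well above every ganglion. Bax rose by 0.46 (SE 0.09, adjusted p 5.49e-04) in the TH-MYCN SMG and by 1.85, which is 3.61-fold (SE 0.10, adjusted p 3.47e-11), in primary spheres. The primary cultures fell into separate ranges by slide, 4.72 to 4.82 on slide 3 and 4.35 to 4.48 on slide 4, whereas passaged RNA read on both slides differed by no more than 0.12 per culture. The fibroblast marker mean of the same primary cultures was -2.21 (SD 0.64) for the 4 on slide 3 and -4.22 (SD 0.47) for the 4 on slide 4. The glia marker mean was split in the same way, at -2.44 (SD 0.47) on slide 3 and -4.45 (SD 0.14) on slide 4, and the part of either in the Bax difference was not tested.

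Bak1 behaved differently from Bax. It read 0.75, 1.11 and 1.48 (lowest, median, highest) in wild-type SMG, 0.84, 1.05 and 1.21 in TH-MYCN SMG, 0.72, 0.99 and 1.25 in primary spheres, and 0.95, 1.17, 1.09 and 0.93 in passaged spheres. All 4 groups overlapped and no step between them was called. The differences were -0.10 (95% interval -0.32 to 0.11, adjusted p 0.377), -0.02 (-0.18 to 0.14, adjusted p 0.811) and 0.02 (-0.18 to 0.22, adjusted p 0.910), so each interval lies within a log2 difference of 0.32. Other settings called it lower: within slide 2 in the ganglia (-0.28, adjusted p 0.0208), and in primary spheres with the median gene set to no difference (-0.29, adjusted p 0.00202). Wild-type ganglia averaged 0.93 on slide 1 and 1.34 on slide 2.

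Bax and Bbc3, which encodes PUMA, had the most similar profiles of any 2 members over the 28 samples, with a root mean square difference of 0.22 between the centred log2 values. Both are textbook targets of p53. The 250 bases before their annotated starts are shown with those of Bcl2, which moved the opposite way in the ganglia. The sequences are from RefSeq on GRCm38.p6, 5′ to 3′ on the gene's strand. Capitals mark matches to the E-box CACGTG, the letters that MYC and MAX proteins bind, and to the p53 half-site.
Bax, chr7:45466899-45467148, minus strand: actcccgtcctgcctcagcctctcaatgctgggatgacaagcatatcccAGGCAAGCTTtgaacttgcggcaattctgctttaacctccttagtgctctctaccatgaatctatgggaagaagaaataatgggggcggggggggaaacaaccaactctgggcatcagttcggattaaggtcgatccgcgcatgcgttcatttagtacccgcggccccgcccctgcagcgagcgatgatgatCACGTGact
Bbc3, the last of its 3 annotated starts, chr7:16310181-16310430, plus strand: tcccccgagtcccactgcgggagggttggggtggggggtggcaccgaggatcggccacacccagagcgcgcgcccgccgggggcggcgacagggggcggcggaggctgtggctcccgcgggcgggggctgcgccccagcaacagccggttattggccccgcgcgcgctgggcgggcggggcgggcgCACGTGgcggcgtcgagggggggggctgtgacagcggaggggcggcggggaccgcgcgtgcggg
Bcl2, chr1:106714291-106714540, minus strand: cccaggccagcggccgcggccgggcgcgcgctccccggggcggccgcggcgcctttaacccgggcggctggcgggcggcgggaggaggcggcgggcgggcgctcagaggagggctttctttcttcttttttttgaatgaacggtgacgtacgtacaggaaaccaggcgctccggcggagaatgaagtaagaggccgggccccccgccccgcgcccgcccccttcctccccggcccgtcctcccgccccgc
Windows of 250 bases before to 50 after the start are given for 9 of the 10 members, 14 windows in all. Pmaip1 was left out. In Bax, CACGTG began at -9 and again at 35 after the start, and a p53 half-site began at -201, with no overlap between them; in the last Bbc3 window CACGTG began at -64. No other of these 14 windows held either match. Over both strands, 7.15% of all 32851 windows held CACGTG and 8.36% held the half-site. These matches describe letters in the windows and not binding.

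Bcl2l11 encodes BIM, the BH3-only protein that sympathetic neurons raise when growth factor is withdrawn. Its spot was not well above background in any wild-type ganglion, where it read a lowest value of -6.78, a median of -6.11 and a highest of -5.52. The TH-MYCN SMG read -5.48, -4.36 and -4.02, with 7 of 8 above background, and TH-MYCN SMG 4 was the one below it. Primary spheres read -3.47, -3.20 and -2.80, and passaged spheres 1 to 4 read -3.50, -2.78, -2.01 and -3.33, all above background. Neither the ganglia of the 2 genotypes nor the TH-MYCN ganglia and primary spheres overlapped, while TH-MYCN SMG 4 lay next to the wild-type range. Against a floor for the wild-type arrays, Bcl2l11 was 2.42-fold higher in the TH-MYCN SMG, and its fitted difference was called (adjusted p 9.06e-06). This test rests on wild-type values below background, and the gene entered it only through the TH-MYCN SMG. The 2.42-fold sets the mean of the TH-MYCN SMG against, per wild-type array, the Bcl2l11 signal or the dimmest signal that counts as above background, whichever is higher. This is not a strict lower limit. TH-MYCN SMG 4 read -5.48, above the dimmest such signal on its array, -5.66, yet was not above background. Each fold given below as "at least" is taken against such a floor and was computed with this background correction only. Bcl2l11 rose by 1.29, which is 2.45-fold (SE 0.17, adjusted p 2.91e-06), in primary spheres. Being so dim, it depended on the background correction: with normexp the difference in the ganglia was -0.13 (adjusted p 0.582), while that in primary spheres was 1.04 (adjusted p 9.96e-09). Within slide 2 the TH-MYCN ganglia read -4.79 to -4.08 and the wild-type ganglia -6.78 to -6.16. Within slide 1 they read -5.48 to -4.02 and -6.06 to -5.52. The wild-type readings and that of TH-MYCN SMG 4, at -5.48, were below background, so these ranges describe the readings and are no further test.

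Bbc3 read a lowest value of 0.61, a median of 1.26 and a highest of 1.51 in wild-type SMG, 1.32, 1.76 and 1.88 in TH-MYCN SMG, 3.05, 3.33 and 3.49 in primary spheres, and 2.98, 2.74, 3.68 and 3.17 in passaged spheres. TH-MYCN SMG 4 and 7 lay within the wild-type range, the other 6 above it, and the spheres far above both. Bbc3 rose by 0.45 (SE 0.12, adjusted p 0.00472) in the TH-MYCN SMG and by 1.61, which is 3.06-fold (SE 0.09, adjusted p 6.82e-11), in primary spheres. Within slide 2 the rise in the ganglia was 0.28 (adjusted p 0.0717).

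Bid links death receptors to mitochondria once caspase-8 has cleaved its protein. It read -1.35, -0.77 and -0.43 (lowest, median, highest) in wild-type SMG, -0.43, 0.28 and 0.82 in TH-MYCN SMG, 1.52, 1.60 and 1.95 in primary spheres, and 1.51, 1.39, 1.38 and 1.46 in passaged spheres. The 3 main groups did not overlap, though TH-MYCN SMG 4, at -0.43, touched the highest wild-type ganglion, also at -0.43. Bid rose by 1.06, which is 2.08-fold (SE 0.17, adjusted p 7.53e-05), in the TH-MYCN SMG and by 1.35, which is 2.55-fold (SE 0.15, adjusted p 2.99e-07), in primary spheres.

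Pmaip1, which encodes NOXA, the BH3-only partner that neutralises MCL1, was not called in any comparison. It read -4.88, -3.36 and -2.76 (lowest, median, highest) in wild-type SMG, -3.68, -3.46 and -2.89 in TH-MYCN SMG, and -4.49, -3.90 and -2.88 in primary spheres. Passaged spheres 1 and 3 read -1.65 and -1.58, and passaged spheres 2 and 4 read -3.62 and -3.83. The ganglia and primary spheres overlapped throughout, while passaged cultures 1 and 3 lay above every other sample and cultures 2 and 4 lay within the primary range (SD 1.22, n = 4). The difference was 0.20 in the ganglia (95% interval -0.37 to 0.77, adjusted p 0.530) and -0.42 in primary spheres (-0.87 to 0.02, adjusted p 0.0721). The latter passed without primary sphere 7 (-0.50, adjusted p 0.0372) or 8 (-0.55, adjusted p 0.0137), and with the median gene set to no difference (-0.70, adjusted p 0.00643). It also passed with the slide 3 cultures alone (-0.71, adjusted p 0.00743), an alternative chosen after seeing the data. It turned to 0.31 (adjusted p 0.00647) with normexp, so its direction rests on the background correction.

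From primary to passaged spheres 0 of 10 members were called by limma, where 5.16% of all tested genes were called higher and 6.54% lower. An unadjusted p under 0.05 was found for 3 of 10 members, Bcl2, Pmaip1 and Bid, near the 29.1% over all tested genes. The differences were 0.18 for Bcl2 (95% interval 0.02 to 0.35, adjusted p 0.139), -0.21 for Bid (-0.38 to -0.04, adjusted p 0.0923) and 1.09 for Pmaip1 (0.10 to 2.08, adjusted p 0.136). The Bid ranges did not overlap, as was so for 9.18% of the tested genes. For Bax the interval ran from -0.29 to 0.22, for Bbc3 from -0.46 to 0.16, for Mcl1 from -0.04 to 0.27, for Bcl2l1 from -0.16 to 0.15 and for Bcl2l2 from -0.24 to 0.08. For Bcl2l11 it ran from -0.23 to 0.77, so a moderate rise of this gene was not detectable with 4 cultures. Passaged culture 3 read highest of the 4 for Bax, Bbc3, Bcl2l11, Bcl2 and Pmaip1, and lowest for Bcl2l1 and Bid. The number of all genes called fell from 1657 to 813 without passaged sphere 2 and to 785 without passaged sphere 4, while the members' count stayed at 0 without any single culture.

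**Figure D3:**
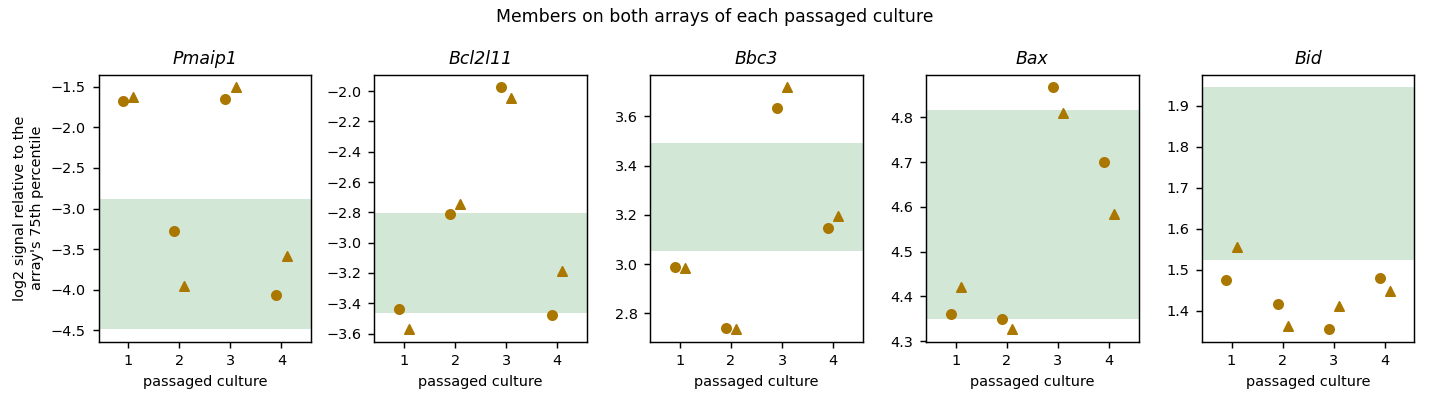
Log2 signal relative to the 75th percentile on both arrays of each passaged culture (circles slide 3, triangles slide 4), with the range of the 8 primary cultures shaded. The 2 arrays of a culture lie close together for Bax, Bbc3 and Bid, and Pmaip1 splits cultures 1 and 3 from cultures 2 and 4 on both slides; the axes differ between panels.

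Set directly against the wild-type SMG, primary spheres had 5 members called higher and 3 lower, 8 of 10 in all, where 83.8% of all tested genes were called in either direction, and passaged spheres had the same counts against a background of 80.2%. Bcl2l11, among the 5 called higher in both, was above background in no wild-type ganglion and entered these tests only through the spheres. Against the TH-MYCN SMG, passaged spheres had 5 called higher and 1 lower, where 80.0% of the tested genes were called. These comparisons share their samples with those above and are given for size alone. From wild-type SMG to primary spheres Bid rose 5.31-fold, Bax 4.96-fold and Bbc3 4.17-fold, Bcl2l11 was at least 5.93-fold higher, and Bcl2 and Bcl2l2 fell by 1.34 and 1.14 on the log2 scale. When the 4 groups were ordered by mean, Bcl2 ran from primary spheres through passaged spheres and TH-MYCN SMG to wild-type SMG, with the last step alone called. Bcl2l1 and Bcl2l2 ran from spheres, which did not differ by the test, through TH-MYCN SMG to wild-type SMG. Bax, Bbc3, Bcl2l11, Bid and Mcl1 ran from wild-type SMG through TH-MYCN SMG to the spheres, with the first steps called and the step between the 2 kinds of sphere not.

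The 8 TH-MYCN ganglia differed widely in the mitosis score, the mean log2 level of 16 mitosis genes, and 3 of 10 members were called rising and 3 of 10 falling along it, where 19.1% of all tested genes had a called positive slope and 24.9% a called negative one. Markers of other cells moved with the score in the same ganglia. The glia marker mean was 0.97 in TH-MYCN SMG 4, which had the lowest score, 0.75 and 0.74 in TH-MYCN SMG 5 and 7, the next lowest, and -0.11, -0.15 and 0.11 in TH-MYCN SMG 1, 2 and 8, the highest. The macrophage mean ran the other way, at 1.42 in TH-MYCN SMG 4 and at 2.10, 2.16 and 2.01 in TH-MYCN SMG 1, 2 and 8. Their part in the slopes was not tested. Per unit of score Bcl2 fell by 0.74 (SE 0.13, adjusted p 0.00304), Bcl2l2 fell by 0.35 (adjusted p 0.00443) and Bcl2l1 fell by 0.23 (adjusted p 0.0111). Bcl2l11 rose by 0.64 (SE 0.08, adjusted p 8.73e-04), Bid by 0.55 (adjusted p 0.00184) and Bax by 0.26 (adjusted p 0.00960). Bcl2l11 was below background in TH-MYCN SMG 4, and its slope was not run with normexp. The slopes of Bbc3 (0.22, adjusted p 0.0514), Bak1 (-0.13, adjusted p 0.0876), Pmaip1 (-0.13, adjusted p 0.502) and Mcl1 (0.02, adjusted p 0.854) did not pass. Bbc3 passed with slide as a block (adjusted p 0.0499) and after quantile normalization (adjusted p 0.0446).

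The ganglion with the lowest score, TH-MYCN SMG 4, had the highest Bcl2, Bcl2l1, Bcl2l2 and Bak1 of its group and the lowest Bax, Bbc3, Bcl2l11 and Bid. Without it, an alternative for the slopes chosen after seeing the data, 5561 of 15089 tested genes had a called slope. Among the members 4 kept one: Bcl2 (-0.95, adjusted p 0.00791), Bcl2l1 (-0.30, adjusted p 0.0229), Bcl2l11 (0.49, adjusted p 0.0115) and Bid (0.57, adjusted p 0.0156). Bcl2l2 (-0.25, adjusted p 0.0766) and Bax (0.27, adjusted p 0.0619) did not. Without the 2 ganglia farthest from the median score, TH-MYCN SMG 4 and 5, 2 slopes of 10 were called, those of Bcl2 and Bcl2l11. In that fit 3226 of 14922 tested genes had a called slope. Leaving out TH-MYCN SMG 4 left the comparison of the ganglia at 5 members higher and 3 lower, and that of primary spheres with the TH-MYCN SMG at 5 and 2.

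**Figure D4:**
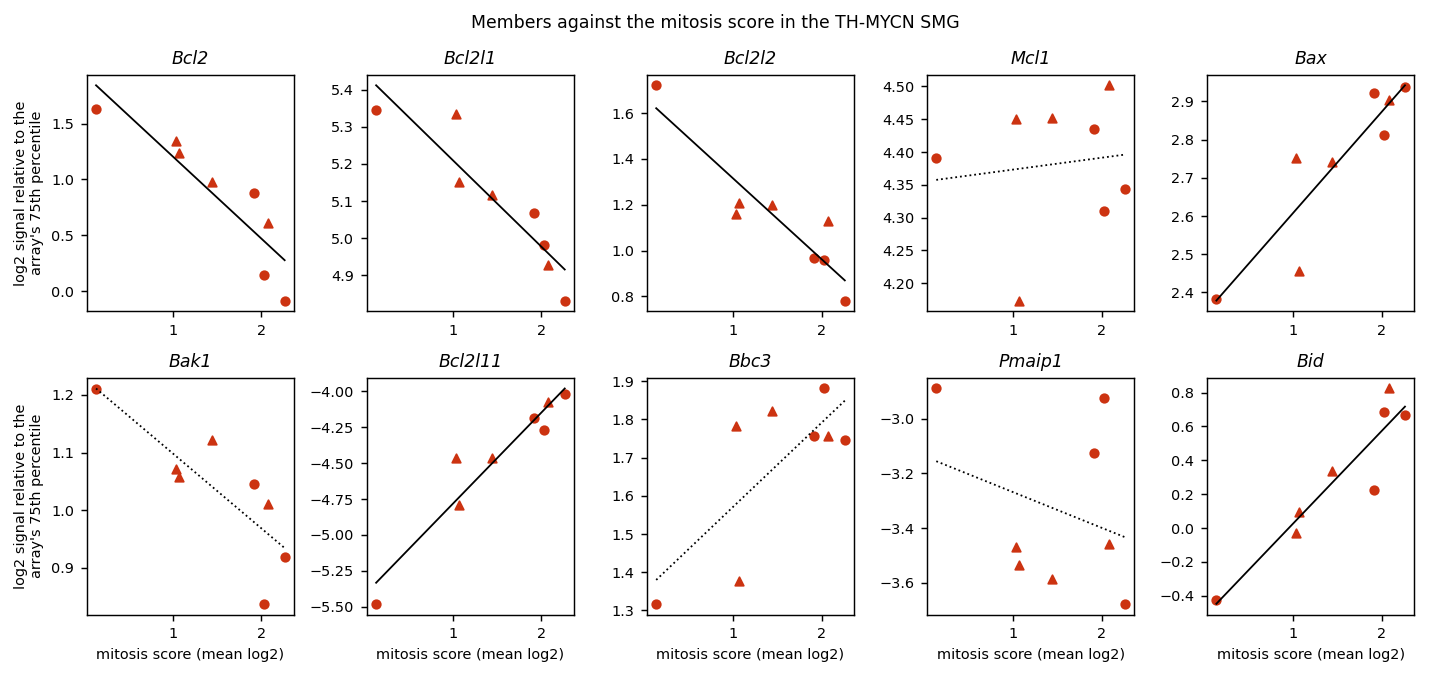
Log2 level of each member against the mitosis score in the 8 TH-MYCN ganglia (circles slide 1, triangles slide 2), with the fitted line, solid where the slope passed the adjusted threshold and dotted where it did not. The point at the left of each panel is TH-MYCN SMG 4, at a score of 0.13.

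Of 15 other BCL2 family genes listed, 13 were on the array under a matched name. In the TH-MYCN SMG 4 of the 13 were called higher and 4 lower, where 21.9% and 43.8% of all tested genes were, with a median difference of 0.06 against -0.22 over all tested genes. Hrk, a BH3-only gene known from dying sympathetic neurons, rose by 3.96 (SE 0.22, adjusted p 3.73e-10), from a mean of -1.06 to one of 2.90, and followed the mitosis score with a slope of 0.83 (adjusted p 6.20e-04). Bok, a relative of the effectors, rose by 0.96 (adjusted p 4.96e-04), the guardian Bcl2a1d, a gene of blood cells, by 0.66 (adjusted p 0.00324) and Bcl2l15 by 0.43 (adjusted p 0.00221). Bnip3, a mitophagy receptor of hypoxic cells, fell by 0.84 (adjusted p 6.78e-06), the BH3-only gene Bad fell by 0.60 (adjusted p 8.65e-05), Bcl2l10 fell by 0.90 (adjusted p 0.00898) and Bik fell by 0.48 (adjusted p 0.0225), the last 2 being above background in 5 and 3 of the 8 TH-MYCN ganglia. Not called were Bcl2l12 (-0.22, adjusted p 0.0775), Bcl2l13 (0.22, adjusted p 0.142), Bcl2l14 (0.16, adjusted p 0.732), Bmf (0.06, adjusted p 0.587) and Bnip3l (-0.03, adjusted p 0.751).

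In primary spheres against the TH-MYCN SMG 5 of the 13 were called higher and 6 lower, where 50.2% and 32.9% of all tested genes were, with a median of -0.21 against 0.27 over all tested genes. Bcl2a1d and Bcl2l10 were not above background in any primary sphere and entered this test only through the TH-MYCN SMG, so their tests rest on sphere values below background. Bcl2a1d was at least 40.3-fold lower (adjusted p 3.60e-16), beside the lower macrophage markers given above, and Bcl2l10 was at least 1.22-fold lower (adjusted p 1.72e-07). Bnip3 fell by 0.86 (adjusted p 1.04e-06), Bmf, a BH3-only gene, fell by 0.78 (adjusted p 1.53e-06), Bad fell by 0.44 (adjusted p 1.20e-04) and Bcl2l12 fell by 0.21 (adjusted p 0.0294). Bok rose by 0.82 (adjusted p 1.51e-05), Bcl2l13 by 0.58 (adjusted p 1.65e-06), Bnip3l by 0.40 (adjusted p 9.23e-06) and Bcl2l15 by 0.23 (adjusted p 0.0242). Bik was called higher (adjusted p 0.00196), being above background in 3 of 8 TH-MYCN ganglia and 7 of 8 primary spheres, so the size of its difference is uncertain. Hrk (-0.37, adjusted p 0.115) and Bcl2l14 (-0.06, adjusted p 0.892) were not called. From primary to passaged spheres 5.16% of all tested genes were called higher and 6.54% lower. In passaged against primary spheres 2 of 10 tested were called, Hrk (0.51, SE 0.12, adjusted p 0.0215) and Bcl2l13 (0.30, SE 0.08, adjusted p 0.0356), both higher; Bmf (0.47, adjusted p 0.0760), Bik (0.37, adjusted p 0.361), Bok (0.32, adjusted p 0.335), Bnip3 (-0.25, adjusted p 0.0941), Bad (-0.21, adjusted p 0.121), Bcl2l15 (-0.06, adjusted p 0.673), Bcl2l12 (0.04, adjusted p 0.821) and Bnip3l (-0.02, adjusted p 0.875) were not.

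Downstream of the mitochondrial pore, 7 of 14 apoptosome and caspase genes were called higher and 5 lower in the TH-MYCN SMG, where 21.9% and 43.8% of all tested genes were (median 0.22, against -0.22 over all tested genes). In primary spheres 11 were called higher and 2 lower, where 50.2% and 32.9% of all tested genes were (median 0.73, against 0.27). Casp2 rose by 1.39 (adjusted p 8.88e-07) and Parp1, a DNA repair enzyme that caspases cleave, by 1.04 (adjusted p 3.08e-05) in the TH-MYCN SMG. In primary spheres Parp1 rose by 1.25 (adjusted p 1.18e-07) and Cycs, the cytochrome c that leaks through the pore, by 1.17 (adjusted p 6.07e-10). In passaged against primary spheres Casp2 rose by 0.32 (adjusted p 0.0275), Dffa, the inhibitor of the caspase-activated nuclease, fell by 0.24 (adjusted p 0.0340), and the other 12 were not called. There 5.16% of all tested genes were called higher and 6.54% lower.

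Of 7 inhibitor of apoptosis genes tested, 1 was called higher and 2 lower in the TH-MYCN SMG, against 21.9% and 43.8% of all tested genes. Birc5, which encodes survivin, a protein of both mitosis and caspase control, rose by 4.72 (SE 0.23, adjusted p 9.33e-11), while Birc3 fell by 0.84 (adjusted p 2.91e-04) and Xiap, a direct caspase inhibitor, fell by 0.39 (adjusted p 2.45e-04). In primary spheres 2 were called higher and 3 lower, against 50.2% and 32.9%, with a median of -0.16 against 0.27 over all tested genes. Naip2 was above background in all 8 TH-MYCN ganglia and in no primary sphere, so it entered this test only through the TH-MYCN SMG. It was at least 7.50-fold lower (adjusted p 5.82e-15), a test that rests on sphere values below background. Birc5 rose by 1.91 (adjusted p 4.18e-07), and Birc3 was called lower (adjusted p 3.20e-05). Birc3 was above background in 1 of 8 primary spheres, which at -2.41 lay above every TH-MYCN ganglion (-3.67 to -2.68), so no size is given for its difference. In passaged against primary spheres 0 of 5 were called by limma, where 5.16% of all tested genes were called higher and 6.54% lower. Of the 5, 2 had an unadjusted p under 0.05, where 29.1% of all tested genes did.

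The death receptor pathway, which reaches the family through Bid, had members called in both directions. Of 9 genes 1 was called higher and 4 lower in the TH-MYCN SMG, where 21.9% and 43.8% of all tested genes were (median -0.10, against -0.22), among them Cflar, the inhibitor of caspase-8, which fell by 0.94 (adjusted p 1.72e-04), the receptor gene Fas, which fell by 0.72 (adjusted p 0.00202), and its ligand Fasl, which rose by 0.88 (adjusted p 1.77e-04). In primary spheres 4 were called higher and 4 lower, where 50.2% and 32.9% of all tested genes were (median 0.09, against 0.27). The adaptor gene Fadd rose by 1.42 (adjusted p 1.70e-10), the receptor genes Tnfrsf10b and Tnfrsf1a by 0.98 (adjusted p 1.72e-05) and 0.84 (adjusted p 1.28e-04), and Fasl by 0.85 (adjusted p 3.06e-04). Casp8 was above background in all 8 TH-MYCN ganglia and in no primary sphere, so it entered this test only through the TH-MYCN SMG. It was at least 8.61-fold lower (adjusted p 4.95e-08), a test that rests on sphere values below background. Fas fell by 3.19 (SE 0.09, adjusted p 1.26e-14) and Cflar fell by 2.24 (adjusted p 2.18e-08). In passaged spheres Fas was not above background on any array, so it entered the test only through the primary spheres. Fas was at least 1.21-fold lower there than in primary spheres (adjusted p 5.00e-05), and Tradd rose by 0.47 (adjusted p 0.00952). Of 8 tested genes these were the 1 called lower and the 1 called higher, where 6.54% and 5.16% of all tested genes were. In primary spheres against the TH-MYCN SMG 9 of 10 macrophage, 8 of 9 fibroblast, 9 of 9 glia, 7 of 8 endothelial and 5 of 5 tested erythroid markers were called lower, and of 7 tested lymphocyte markers 4 were called lower and 2 higher. The macrophage marker Itgam (mean 3.26 in the TH-MYCN SMG, 3.54 in primary spheres), the fibroblast marker Fbln1 (0.16, 1.86) and the endothelial marker Kdr (0.85, 2.19) were called higher. The part of these markers' cells in the differences was not tested.

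**Figure D5:**
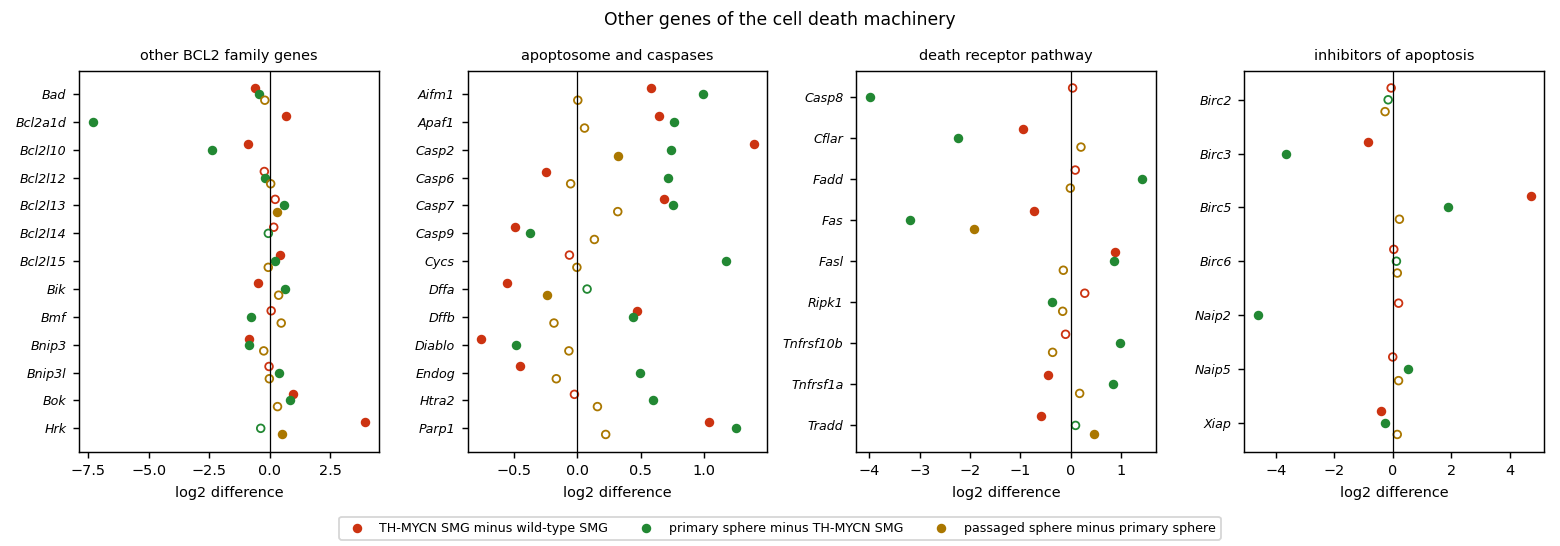
Log2 differences of the other BCL2 family, apoptosome and caspase, death receptor and inhibitor of apoptosis genes, 1 gene of these lists left out, in the 3 comparisons (colours), filled where called. Axes differ between panels, and points below background in the dimmer group, such as Bcl2a1d, Naip2, Birc3 and Casp8 in primary spheres, show fitted differences whose size is uncertain.

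Of 7 transcription factors known to regulate BH3-only genes, 3 were called higher and 3 lower in the TH-MYCN SMG, where 21.9% and 43.8% of all tested genes were (median -0.21, against -0.22). E2f1, a cell cycle factor, rose by 2.38 (adjusted p 5.68e-08), while Foxo1, a factor active when growth factor signals are low and a known inducer of Bcl2l11, fell by 0.88 (adjusted p 8.54e-05) and Trp73 fell by 0.90 (adjusted p 0.0118). In primary spheres 3 of the 6 tested were called higher and 1 lower, where 50.2% and 32.9% of all tested genes were. There E2f1 rose by 1.90 (adjusted p 7.92e-08), Foxo1 fell by 3.24 (adjusted p 3.29e-12) and Trp53, the gene of p53, rose by 1.78 (adjusted p 1.51e-09). In passaged against primary spheres 2 of 6 tested were called higher and 1 lower, where 5.16% and 6.54% of all tested genes were. E2f1 rose by 0.50 (adjusted p 0.00230), Jun, which sympathetic neurons raise on growth factor withdrawal, by 0.61 (adjusted p 0.00300), and Foxo1 fell by 0.74 (adjusted p 0.0263).

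Among 13235 genes compared over the 28 samples, the genes with profiles nearest to each member, by the root mean square difference of centred log2 values, were Irs2 (0.16) for Bcl2, and Nhp2 (0.17) and Naa15 (0.18) for Bax. Those nearest to Bid were Apex1 (0.16) and Nup43 (0.17), and those nearest to Bbc3 were Syncrip (0.18) and N4bp3 (0.21). Bcl2l11 had Diaph3 (0.30) and Tpbg (0.34). For the guardians Bcl2l1, Bcl2l2 and Mcl1 the nearest were, in turn, Ankrd27 (0.10) and Sgpp1 (0.11), then Rnf103 (0.11), then Trmt1 (0.10) and Nsd1 (0.10). Bak1, whose own SD over the samples was 0.17, had Trip12 and Ogfod3 (0.13 each). Pmaip1 had no close neighbour: its nearest, Asic5 and Clcf1, were at 0.63, against its own SD of 0.74. These are descriptions of likeness over samples that share groups and slides.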

How the data were processed

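Cy3-labelled RNA was read on Agilent mouse arrays of one colour, per the labels. The labels give the RNA input as either 40 or 200 ng without saying which sample had which, and its part in the differences was not tested. The processed intensity of each spot, background-subtracted and not normalized between arrays, was deposited by the authors together with the spot flags, read with Feature Extraction 11.5.1.1 per the file headers. The authors also deposited a log2 value table, used as an alternative; 99.86% of its values match, within 0.05 and after a shift per probe whose reference is unknown, the log2 processed intensity relative to the 75th percentile of the array. Here that log2 scale was rebuilt from the spots, without control and outlier spots (109 to 211 per array).

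Probes were named through RefSeq accessions (GRCm38.p6 table). A probe was kept if well above background in at least 4 samples of a comparison, and a gene was read by its brightest kept probe. Groups were compared with limma 3.58.1 in R 4.3.3 (lmFit, eBayes, two-sided, Benjamini-Hochberg), tested on simulated data. Alternatives covered background, scaling, filter, probes, slides, blocks and samples left out. The members, lists and tests were chosen with earlier results of these data known. Named genes are all members, every measured other BCL2 family gene, up to 3 called genes per list with the largest difference whose brighter group was above background throughout, and the 2 nearest profiles per member. A few genes that this rule names are not reported here.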

Additional observations from a re-analysis of the deposited data

Results flagged for a closer look

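In 3 of the 40 sets formed by a member and a group, a single sample stood apart from the others by Dixon's test, where chance gives about 1 in 20. Bcl2l2 in TH-MYCN SMG 4 was the highest of its group at 1.72, with the nearest ganglion at 1.21; this is also the ganglion with the lowest mitosis score. Bbc3 in wild-type SMG 2 was the lowest of its group at 0.61, with the nearest at 1.09. Bid in primary sphere 8 was the highest of its group at 1.95, with the nearest at 1.70.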

How the results depend on the processing

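Of the members' 40 differences and slopes, 1 called result changed direction, Bcl2l11 in the ganglia at -0.13 (adjusted p 0.582) with normexp. The slopes were run under 4 alternatives only, without normexp, so they were checked less than the differences. Of the differences and slopes not called, 10 changed sign under at least 1 alternative. Pmaip1 in primary spheres passed with the other sign, at 0.31 (adjusted p 0.00647) with normexp. The other 9 did not pass there (adjusted p at least 0.326): Bak1 in all 3 comparisons, Pmaip1 in the ganglia (-0.20 with normexp), the Pmaip1 slope (0.14 without TH-MYCN SMG 4), and Bax, Bcl2l1, Bcl2l11 and Mcl1 in passaged spheres. The cause was not tested. Within slide 1 the TH-MYCN SMG had 4 members called, 3 higher and 1 lower, where 7439 of 15420 tested genes were called. Within slide 2 it had 3 called higher, and Bcl2, Bcl2l1, Bcl2l2 and Bak1 called lower, where 9713 of 15410 tested genes were called. Both fits hold fewer samples, and Bcl2l11 was not tested within slide 1 or with the filter of every sample of a group. With the median gene set to no difference, 5 members were called lower in primary spheres, where 12225 of 15650 tested genes were called, 48.3% of these higher and the rest lower. That setting moved the share of all calls that were higher from 33.3% to 55.4% in the ganglia and from 60.4% to 48.3% in primary spheres; in passaged against primary spheres, where the main share was 44.1%, it was 77.4% with no filter. The slope count was 2 of 10 without the 2 samples farthest from the median score, where 3226 of 14922 tested genes were called. The members' count of 0 in passaged spheres was unchanged under all 24 alternatives run, including leaving out each sample.

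Same-numbered ganglia deviated together at correlations of -0.01 to 0.37, ganglia and primary spheres at -0.08 to 0.15, and the 2 kinds of sphere at 0.08 to 0.28, where 4 of 4 passaged cultures were nearest their own number; the labels do not say that numbers mark pairs. With the replicate number as a block 8, 7 and 0 members were called, as without it, and all genes called in passaged spheres went from 1657 to 953. All genes called there were 986 with normexp and 5290 with no filter on dim probes.

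Dim probes limit Bcl2l11 and Pmaip1, and arrays measure RNA, not the proteins whose balance decides cell death.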
